A study of Mus musculus with 8 samples.

Results

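The response to TGF-b of CD4 T cells that lack Smad2 was read from 2 of the 8 arrays of the series, the pair labelled Smad2del/del (Smad2KO) without and with TGF-b, chosen by their sample titles. The response of a gene is the log2 ratio of its signal with TGF-b to its signal without it, so 1 array stands on each side and no ratio has a replicate check. Of 18193 genes named on the array, 9057 were bright enough to be read, meaning that the brighter of both Smad2KO arrays reached a scaled signal of 65.0, which is 2 times a floor of 32.5 set at the median signal. A ratio with its dimmer signal under the floor is a bound and is written as "at least".

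Naive T cells (CD4+CD25-CD44loCD62Lhi) were sorted from spleens of C57BL/6J mice at a stated purity above 98%. They were cultured for 24 h on plate-bound anti-CD3e at 1 ug/ml with anti-CD28 at 1 ug/ml, antibodies blocking IFN-g (10 ug/ml) and IL-4 (10 ug/ml) and recombinant IL-2 (10 ng/ml), either with 2 ng/ml of TGF-b or without it. Every culture therefore held IL-2 and those antibodies, also where TGF-b was left out. The Smad2KO mice carry a Smad2 deletion made only in T cells, and the sources used here do not name the Cre line behind it. Wild type (WT) cells and cells of Smad3-/- mice (Smad3KO), 2 arrays each, served as reference. A further genotype, Smad2del/delSmad3+/-, was not used here. The labels do not say whether cultures came from separate or pooled animals, so p-values measure only the spread between these cultures. With 1 array per genotype and treatment, that is the spread between the responses of the genotypes, including real differences between them. A gene with unequal responses can therefore fail a test of the mean response.

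TGF-b binds a pair of receptor kinases, of which the type I receptor phosphorylates Smad2 and Smad3. Both then join Smad4 and enter the nucleus, where Smad3 binds DNA directly through its MH1 domain, while the main form of Smad2 carries an insert that prevents this. In T cells the cytokine restrains IL-2 production, growth and killer functions, and with IL-2 it favours the regulatory fate marked by Foxp3. The comparison asks how much of the response is seen where Smad2 has been deleted and Smad3 is intact.

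The 6 arrays had rank correlations of 0.907 to 0.928 across probe sets, and the Smad2KO pair stood at 0.927. Signals at 2 times the floor or more made up 39.3% to 40.7% of probe sets. The Gapdh 3' to 5' ratio, a sign of RNA integrity, was 0.785 to 0.835. Control probe sets for 18S ribosomal RNA differed widely, from 35.0 to 79.5 without and 123 to 226 with TGF-b in Smad2KO, and from 2614 to 4020 without and 70.7 to 184 with TGF-b in WT. Their part in the results was not tested. All 7 CD4 T cell markers on the array were bright, with Cd4 at 1524 and 1621 in Smad2KO without and with TGF-b. None of the 5 B cell markers and none of the 3 NK cell markers on the array was bright in Smad2KO. Summed B cell markers read 86.7 and 98.6, and summed NK cell markers 24.6 and 40.9. Of 8 myeloid markers only Csf1r was bright, at 88.6 and 71.3, and of 2 CD8 markers only Cd8b1, at 92.9 and 86.2. In bulk RNA, fewer cells of a kind and less RNA per cell cannot be told apart.

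The targeted gene did not separate the genotypes on these arrays. On the brighter Smad2 probe set, the WT arrays stood at 1068 (no TGF-b) and 1031 (TGF-b), the Smad2KO arrays at 1155 and 1046, and the Smad3KO arrays at 994 and 960. The sources used here do not say whether its probes lie inside the deleted part, and the signal therefore checks nothing about the deletion. Smad3 itself was higher with TGF-b in Smad2KO, from 179 to 437 (log2 ratio 1.29), and its other 2 bright probe sets gave 1.30 and 1.87. In WT that Smad3 probe set went from 149 to 548. In the libraries labelled Smad3KO, however, it stood at 614 without and 730 with TGF-b, the highest of the 6 arrays, so this probe set shows no loss of signal. A second Smad3 probe set gave 286 and 198 there, against 75.4 and 167 in WT, and the remaining one gave 43.2 and 48.7, against 103 in WT with TGF-b and a signal under the floor without it. Whether these probes lie inside the part of Smad3 that is disrupted is not stated either. The probe sets differ, so the Smad3 signal neither bears out nor contradicts the label. "Smad3KO" and "Smad2KO" below mean the libraries labelled so.

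TGF-b culture of Smad2KO cells came with 266 genes 2-fold or more higher (2.94% of the 9057 genes read) and 159 genes 2-fold or more lower (1.76%). Of the higher genes, 50 were at 4-fold, 15 at 8-fold and 9 at 16-fold, while of the lower genes 10 were at 4-fold and none at 8-fold. Most genes stayed close to their level without TGF-b, with 87.6% inside 1.5-fold. The higher genes came from a low level, since their median signal was 82.3 without and 274 with TGF-b and 49 of the 266 had been under the floor. The lower genes went from a median of 195 to 75.0, and 32 of the 159 ended under the floor. Genes in neither group had medians of 485 and 478.

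The spread of the ratios narrowed with signal, so a 2-fold difference is less firm among dim genes. The robust SD of the log2 ratio was 0.475 in the dimmest 1 of 5 equal groups of genes and 0.176 in the brightest, and the share at 2-fold was 8.41% and 1.17%. At least 1 further bright probe set of the same gene was on the array for 107 of the 266 higher genes. For 105 of these at least 1 such probe set had the same sign, and for 103 all of them did. At least 1 was at 2-fold for 83 (77.6%). Of 38 lower genes, 36 had the same sign on all further bright probe sets, and 23 (60.5%) had at least 1 of them at 2-fold. The other genotypes gave a reading in which the Smad2KO responses were left out of the test. It is not fully separate from the Smad2KO arrays, since scaling, floor, filter and choice of probe set were made with those arrays included. In limma's test of the mean response of the WT and Smad3KO pairs alone, which has 1 residual degree of freedom, 472 of 9451 genes rose (4.99%) and 265 fell (2.80%) at an adjusted p under 0.05. In Smad2KO, 458 of those 472 genes had a log2 ratio above 0, with a median of 0.73, and 261 of the 265 had a ratio below 0, with a median of -0.65. Over all 9057 genes read, 4092 ratios were above 0 and 4965 below it.

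**Figure D1:**
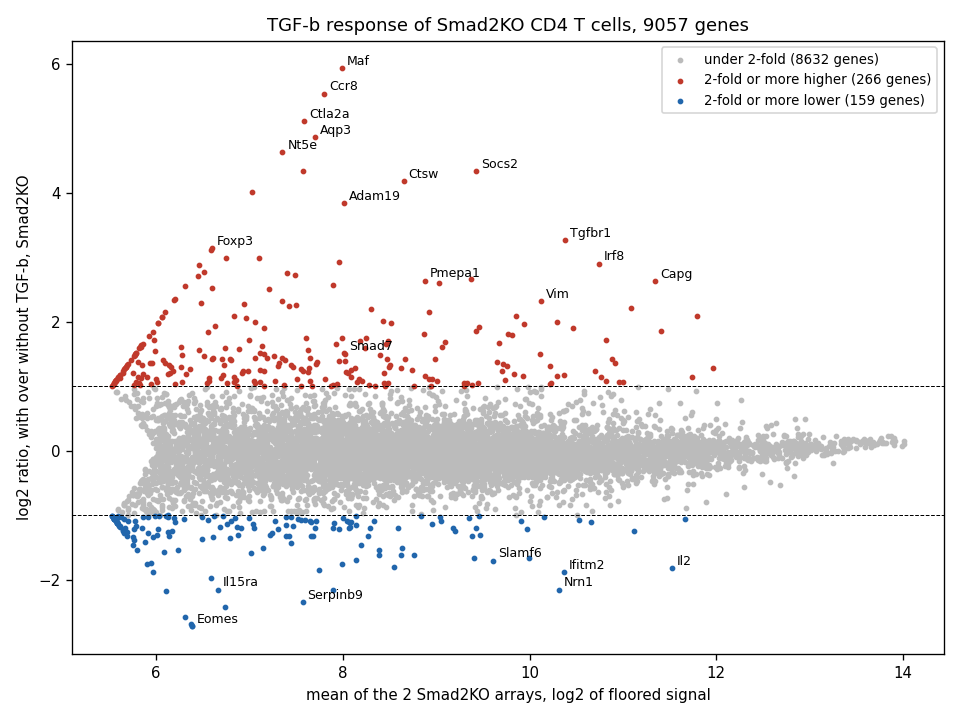
Log2 ratio with over without TGF-b in Smad2KO (vertical axis) against the mean of both Smad2KO arrays on the log2 scale (horizontal axis), 1 point for each of 9057 genes. Red points are the 266 genes 2-fold or more higher and blue points the 159 lower, the dashed lines mark 2-fold, and the slanted edges at the left are genes whose dimmer signal was set to the floor. Maf, Ccr8 and Ctla2a lie at the top, and the bright genes Tgfbr1, Irf8 and Il2 stand well off the grey band.

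The largest ratios belonged to transcription factors, surface receptors and enzymes that were near or under the floor without TGF-b. Maf, a transcription factor that drives helper cell cytokine genes, stood at 10.5 without TGF-b and 1992 with it, at least 61.3-fold. Its other 4 bright probe sets gave smaller log2 ratios, from 2.56 to 3.66, against 5.94 on this one. The chemokine receptor Ccr8 read 21.8 and 1521, at least 46.8-fold. Ccr8 marks activated regulatory and type 2 helper cells, and Maf is shared by several helper lineages. Aqp3, a channel for water and glycerol, read 38.6 and 1126 (29.2-fold, and log2 ratios of 4.25 and 4.59 on its other 2 bright probe sets). Nt5e, the ecto-enzyme that makes extracellular adenosine, read 32.8 and 815 (24.9-fold). Its other bright probe set gave a log2 ratio of 3.14, against 4.64 on this one. Both Aqp3 and Nt5e had similar ratios in WT, 4.50 and 4.39 on the log2 scale, and somewhat smaller ones in Smad3KO, 3.42 and 4.11.

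Emp1, an epithelial membrane protein, read 42.2 and 861 in Smad2KO (20.4-fold), 3.27 and 1021 in WT, and 2.40 and 55.9 in Smad3KO. Its high signals were those of the WT and Smad2KO arrays with TGF-b. The other bright probe set of Emp1 gave a log2 ratio of 1.43 in Smad2KO, against 4.35 on this one. Socs2, an inhibitor of cytokine receptor signalling, read 153 and 3097 (20.3-fold). Its other 3 bright probe sets gave log2 ratios from 1.36 to 3.88, against 4.34 on this one. Ctsw, a cathepsin of cytotoxic lymphocytes, read 94.3 and 1713 (18.2-fold). These genes had larger ratios in Smad2KO than in Smad3KO, where Socs2 read 114 and 848 and Ctsw 15.6 and 219. They were picked by their Smad2KO ratios, which favours that order. The Smad2KO ratio was larger than that of Smad3KO for 235 of the 266 genes higher in Smad2KO. Among the 170 genes picked as higher in Smad3KO it was larger for 69. In limma's test of the mean response over the 3 genotypes, Socs2 rose with an adjusted p of 0.0488, while Ctsw (0.0869) and Emp1 (0.246) did not pass. Further along came Adam19, a metalloprotease, at 68.2 and 977, and Hbegf, a growth factor of the EGF family, at 38.1 and 305. Their other bright probe sets gave log2 ratios of 3.00 against 3.84 for Adam19 and 1.97 against 3.00 for Hbegf. Myo6, a myosin motor, read 34.8 and 238. Dst, a linker of the cytoskeleton, read 34.0 and 224 in Smad2KO and 3.97 and 20.2 in Smad3KO, where neither signal reached the floor. Its other bright probe set gave a log2 ratio of 1.36 in Smad2KO, against 2.72 on this one.

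**Figure D2:**
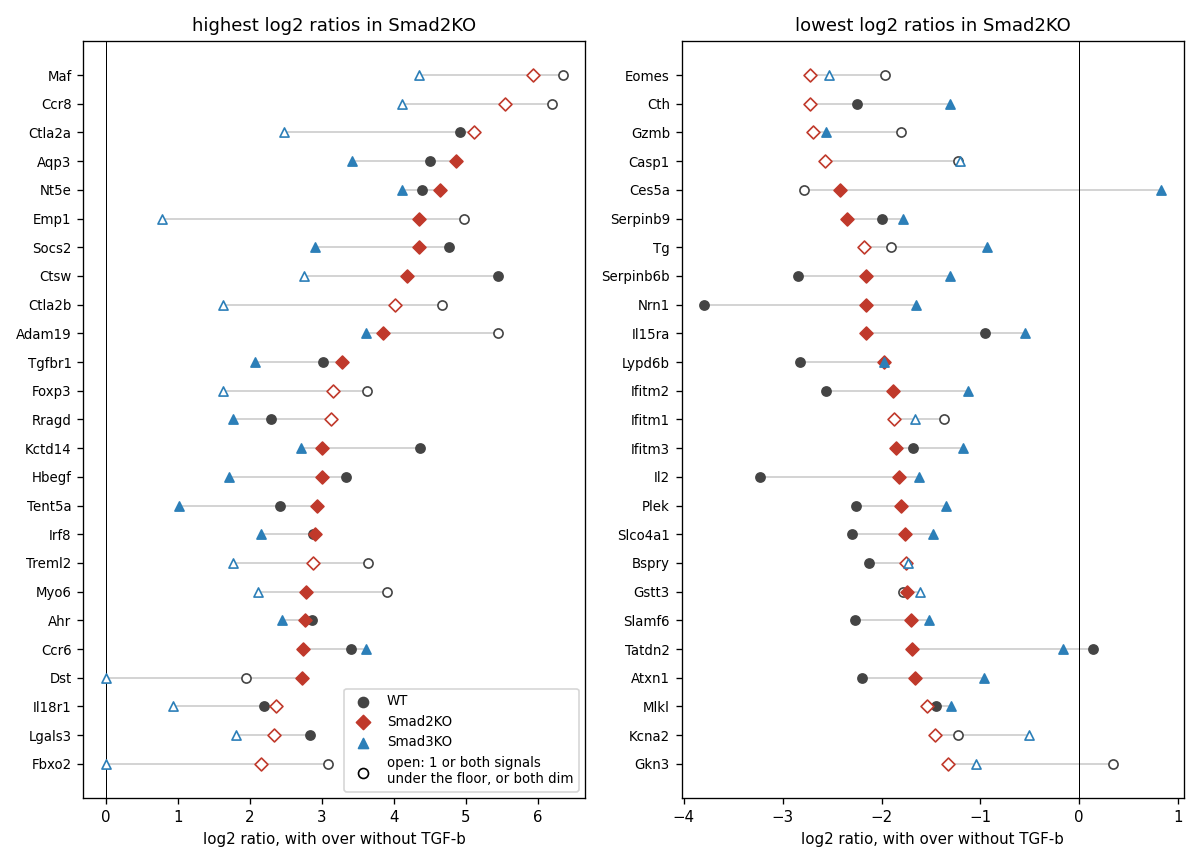
Log2 ratio with over without TGF-b (horizontal axis) in WT (circles), Smad2KO (diamonds) and Smad3KO (triangles), 1 array a side. The 25 genes of each panel are those named for the highest (left) or lowest (right) measured ratios or bounds in Smad2KO. Measured ratios and bounds were ranked apart, so some named genes with larger measured ratios than the bounds shown are left out. Open symbols are bounds or ratios of dim signals. The genes were picked by their Smad2KO ratios, which favours larger ratios there. Smad2KO lies beyond Smad3KO for most of the higher genes, with Ccr6 the other way, and Ces5a, Tatdn2 and Gkn3 are lower in Smad2KO but above 0 in at least 1 other genotype.

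Ctla2a and Ctla2b, a pair of related inhibitors of cysteine proteases, lie next to each other on chromosome 13 among the genes read and were both higher, as was their neighbour 4930486L24Rik. Ctla2a read 26.5 without and 1127 with TGF-b in Smad2KO (at least 34.7-fold), 39.0 and 1178 in WT and 22.3 and 181 in Smad3KO. Ctla2b read 15.6 and 526 in Smad2KO (at least 16.2-fold), 29.4 and 827 in WT and 11.2 and 99.9 in Smad3KO. The order was thus the same for both genes, with the Smad3KO array lowest, although probes of such similar genes may share signal and the split between them is uncertain. Their promoters are shown because both genes moved together and because the sequences are closely alike. A RefSeq promoter of each, 250 bases before the start on the minus strand of GRCm38.p6, is printed 5' to 3' below. It lies at chr13:60936626-60936875 for Ctla2a and chr13:60897448-60897697 for Ctla2b. Ctla2a has a further RefSeq start, whose promoter at chr13:60936567-60936816 overlaps the printed one and held the same matches. Capitals mark CAGACA, a short form of the Smad binding element, or TGTCTG on the other strand, and TGANTCA, the AP-1 motif.
Ctla2a: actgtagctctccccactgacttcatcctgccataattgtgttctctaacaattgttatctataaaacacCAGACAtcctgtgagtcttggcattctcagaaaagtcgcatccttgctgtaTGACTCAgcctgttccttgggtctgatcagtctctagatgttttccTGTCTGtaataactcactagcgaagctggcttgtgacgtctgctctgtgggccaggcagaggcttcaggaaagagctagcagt
Ctla2b: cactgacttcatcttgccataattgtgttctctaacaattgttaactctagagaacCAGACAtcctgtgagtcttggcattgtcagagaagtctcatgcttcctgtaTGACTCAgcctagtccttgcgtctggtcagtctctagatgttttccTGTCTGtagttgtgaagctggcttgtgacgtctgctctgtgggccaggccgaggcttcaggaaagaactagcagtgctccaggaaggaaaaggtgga

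Each of these promoters held 2 copies of the short Smad element, 1 on each strand, with 1 AP-1 match between them. Such short motifs are common by their length alone. Of 32851 RefSeq promoters of 250 bases, 17.1% held CAGACA or TGTCTG, and of the 9503 promoters of genes read here 12.9% did. The share was 18.5% of the 287 promoters matched to 214 of the 266 higher genes and 11.3% of the 160 promoters matched to 127 of the 159 lower genes. For TGANTCA the shares were 6.62% of promoters of higher genes, 6.88% of lower genes, 3.83% of all genes read and 6.75% of all RefSeq promoters. The palindrome GTCTAGAC was in 0 promoters of higher genes and 1 of the lower genes, against 0.274% of the genes read. A match is a description of the letters and not a bound site.

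Genes of the TGF-b pathway itself were mostly higher in Smad2KO. Of 16 bright targets and feedback regulators, 9 were 2-fold or more higher and none lower, with a median log2 ratio of 1.30, against -0.03 over all genes read. The list's medians in WT and Smad3KO were 0.90 and 0.67. In Smad2KO it ran from 0.58 without a filter to 1.31 under median scaling. Pmepa1, which sequesters receptor Smads, went from 189 to 1178 (log2 ratio 2.64). Skil, a corepressor of Smad targets, went from 448 to 1922 (2.10) and its relative Ski from 247 to 662 (1.42). Smad7, the inhibitory Smad that directs the receptor to degradation, read 152 and 437 in Smad2KO (1.52), 180 and 395 in WT (1.13) and 181 and 309 in Smad3KO (0.78), so the Smad2KO pair had the widest gap of the 3. Its other bright probe set gave 1.82. Ldlrad4, a further inhibitor of receptor signalling, was under the floor without TGF-b and at 129 with it.

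Further members of the list included Spsb1, an adaptor of receptor ubiquitination, from 61.0 to 254 (log2 ratio 2.06) and Klf10, an early TGF-b target, from 139 to 466 (1.75). Id1, a helix-loop-helix inhibitor, read 66.5 and 265 (2.00), and Id2 read 881 and 1989 (1.17). Id3, another of that family, went the other way, from 1565 to 1001 (-0.65), and was at 1340 and 475 in WT. Cdkn1a, which blocks cyclin-dependent kinases, was level at 433 and 435. Tgfb1 was also near level, at 2530 and 2769. In limma's test of the mean response over the 3 genotypes, in which 677 of 9453 genes rose (7.16%) and 530 fell (5.61%), 11 of the list's 17 tested genes rose and Tgif2 fell. That test includes the Smad2KO pair. For Smad7, Skil and Pmepa1 the adjusted p was 0.000483, 8.48e-06 and 8.38e-07.

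The receptors followed. Tgfbr1, the type I receptor, read 429 and 4147 in Smad2KO (9.67-fold), 485 and 3915 in WT and 457 and 1924 in Smad3KO, so the array with TGF-b was highest in Smad2KO and lowest in Smad3KO. Its other 2 bright probe sets gave log2 ratios of 2.98 and 3.14 in Smad2KO. Tgfbr2, the type II receptor, went from 1105 to 1794 (0.70) and Tgfbr3, a coreceptor, from 616 to 823 (0.42). Of the bright receptors for activins and BMPs, 3 were 2-fold or more higher, with Acvr2a from 81.9 to 234 (1.51), Bmpr2 from 166 to 557 (1.75) and Acvr1b from 254 to 616 (1.28). Acvr1 and Bmpr1a had smaller ratios, 0.61 and 0.19. Smad1, Smad4 and Smad5 had log2 ratios of 0.05, 0.03 and -0.30. Of 14 bright receptors and Smads, 5 were 2-fold or more higher and none lower, against 2.94% and 1.76% of all genes read.

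**Figure D3:**
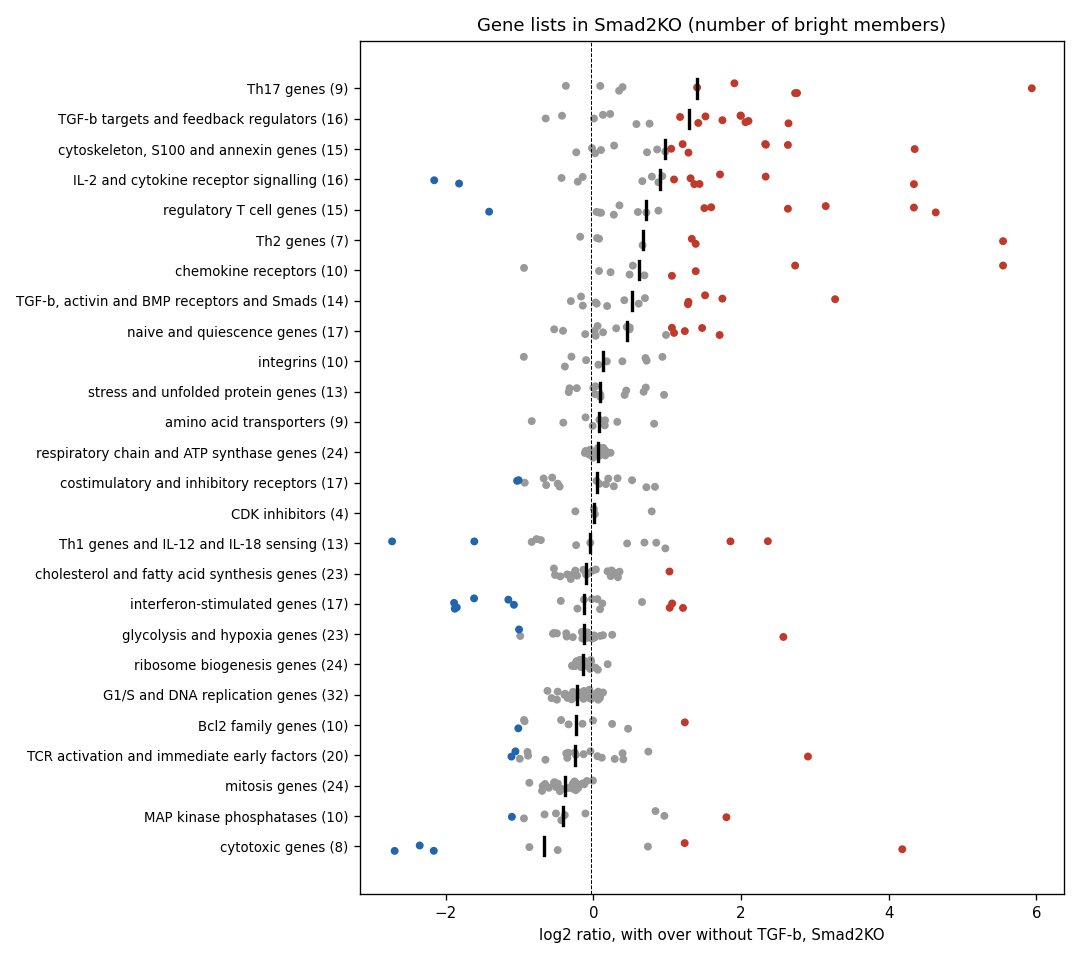
Log2 ratio with over without TGF-b in Smad2KO (horizontal axis) for the bright members of 26 gene lists, 1 point a gene, with the number of bright members in brackets. Red and blue points are 2-fold or more higher and lower, black bars are list medians, and the dashed line is the median of all genes read. The lists of Th17 genes and TGF-b targets have medians of 1.41 and 1.30 and the cytotoxic list one of -0.67, and the order of the lists changes with the settings. Bounds are drawn at the bound.

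Genes of the regulatory T cell fate were higher in part. Foxp3, the factor that defines that lineage, read 24.7 without and 288 with TGF-b in Smad2KO (at least 8.85-fold), 2.77 and 402 in WT and 20.6 and 100.2 in Smad3KO. Every array without TGF-b lay under the floor, and the arrays with it ran in the order WT, Smad2KO, Smad3KO. Its neighbour on the X chromosome among genes read, Ppp1r3f, was also 2-fold or more higher. Ikzf4, a partner of Foxp3 in repression, went from 154 to 436 (2.84-fold), and Gpr83, a receptor enriched in regulatory cells, from 174 to 526 (3.02-fold). Capg, an actin-capping protein, went from 1047 to 6498 (log2 ratio 2.63). Il2ra, the high-affinity IL-2 receptor chain, went from 1400 to 2578 (0.88) and Ctla4 from 1371 to 2255 (0.72). The tumour necrosis factor receptors Tnfrsf18 and Tnfrsf4 moved little, at 0.28 and 0.08. Ebi3, a subunit of secreted cytokines, was lower, from 96.2 to 36.2 (-1.41). Itgae, an integrin of T cells in epithelia, was under the floor on both Smad2KO arrays. Of 15 bright members 6 were 2-fold or more higher and 1 lower, against 2.94% and 1.76% of all genes read.

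Genes tied to the Th17 fate had a median log2 ratio of 1.41 over 9 bright members. Of these, 5 were 2-fold or more higher, against 2.94% of all genes read. The median ran from 0.40 without a filter to 1.42 under median scaling. Besides Maf these were Rora, a nuclear receptor of that lineage, from 73.7 to 277 (log2 ratio 1.91), Ahr, the aryl hydrocarbon receptor, from 65.1 to 440 (2.76), Ccr6, from 69.6 to 463 (2.73), and Il6ra, from 68.3 to 181 (1.41). The other bright probe set of Ahr gave 1.38. The cytokine genes were silent by this measure, since Il17a and Il21 lay under the floor on both Smad2KO arrays. Ccr6 had its smallest ratio in Smad2KO, with 3.41 in WT and 3.61 in Smad3KO. Rora, Ahr, Ccr6 and Il6ra rose in the mean over the 3 genotypes, with adjusted p of 5.04e-06, 1.01e-06, 9.42e-07 and 0.000213 in limma.

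Th1 genes were split. Stat4, the transducer of IL-12 signals, went from 760 to 249 (log2 ratio -1.61), and Eomes, a T-box factor of interferon-producing and cytotoxic cells, from 215 to 1.51 (at least 6.61-fold lower). Il12rb1 went from 645 to 378 (-0.77). Other members were higher. Lta, the cytokine lymphotoxin alpha, went from 1431 to 5180 (1.86), and Il18r1, an IL-18 receptor chain, was under the floor at 20.6 without and at 167 with TGF-b. Tbx21, the master factor of Th1 cells, and Ifng were too dim to be read. Of 13 bright members 2 were higher and 2 lower at 2-fold, with a median of -0.04 (-0.23 to 0 over the alternatives). Over all genes read the shares were 2.94% higher and 1.76% lower. The Th2 list held Ccr8, Ccr4 (34.6 and 90.4) and Nfil3 (36.2 and 91.1) as its 3 higher members, while Gata3 was level at 180 and 186 and the cytokines Il4, Il5 and Il13 were under the floor.

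Genes of IL-2 signalling parted from the Il2 gene. Il2 read 5537 without and 1570 with TGF-b in Smad2KO (log2 ratio -1.82), 5067 and 539 in WT (-3.23) and 5329 and 1729 in Smad3KO (-1.62). The arrays without TGF-b were close together, and with it both knockouts stood above WT. Il2rb, a chain of the IL-2 and IL-15 receptors, went from 753 to 1876 (1.32). Cish, a feedback inhibitor that Stat5 induces, went from 997 to 3274 (1.72), and lay in a run of 4 neighbouring genes read on chromosome 9, Mapkapk3, Cish, Hemk1 and 6430571L13Rik, that were all 2-fold or more higher. Socs3, an inhibitor of IL-6 family signals, went from 72.6 to 366 (2.33), against 1.47 in WT and 1.09 in Smad3KO, and Socs1 from 99.0 to 268 (1.44). Stat5a and Stat5b had ratios of 0.66 and 0.93. Il15ra, the private chain of the IL-15 receptor, was lower, from 213 to 47.9 (-2.15, and -1.72 on its other bright probe set), against -0.95 in WT and -0.55 in Smad3KO. Of the 16 bright members 7 were higher and 2 lower at 2-fold, and 11 rose in limma's mean test. Over all genes read, 2.94% were higher and 1.76% lower, and 7.16% of all genes tested rose in that test.

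Killer genes moved both ways. Gzmb, the protease of cytotoxic granules, read 210 without and 31.8 with TGF-b in Smad2KO (at least 6.46-fold lower), 114 and 1.21 in WT and 206 and 35.0 in Smad3KO. Serpinb9, which protects the cell from granzyme B, went from 428 to 84.0 (log2 ratio -2.35), and its neighbour Serpinb6b, another protease inhibitor, from 504 to 113 (-2.16). Fasl, the death ligand, went from 349 to 191 (-0.87). Ctsw, described above, and Nkg7, a protein of cytotoxic granules, were higher, Nkg7 from 93.2 to 220. Eomes, Gzmb and Serpinb9 fell in the mean over the 3 genotypes, with adjusted p of 6.99e-05, 0.000102 and 8.62e-06 in limma. The list had 3 members lower and 2 higher at 2-fold of 8 bright, against 1.76% and 2.94% of all genes read. Its median log2 ratio was -0.67, and ran from -0.87 to 0 over the alternatives.

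The lowest ratios outside these lists belonged to genes of varied roles. Nrn1, neuritin, a small membrane-anchored protein, read 2684 and 602 in Smad2KO (log2 ratio -2.16), 3169 and 229 in WT (-3.79) and 2939 and 938 in Smad3KO (-1.65). Cth, an enzyme of cysteine synthesis, read 215 and 30.3, at least 6.61-fold lower. Casp1, the inflammasome protease, read 194 and 26.3 in Smad2KO (at least 5.96-fold lower), 75.9 and 27.9 in WT and 74.9 and 31.8 in Smad3KO. The difference between genotypes lay in the arrays without TGF-b, where Casp1 was highest in Smad2KO. Its neighbour Casp4 was also 2-fold or more lower. Slamf6, a receptor of lymphocyte contacts, went from 1413 to 434 (-1.70), and Plek, pleckstrin, from 698 to 200 (-1.80). Atxn1, a transcriptional corepressor, went from 1203 to 380 (-1.66). The other bright probe sets gave -1.59 and -0.65 for Slamf6, -1.51 and -0.98 for Plek and -1.51 for Atxn1. Mlkl, the effector of necroptosis, went from 94.6 to under the floor. Kcna3, AI504432 and Kcna2, a run on chromosome 3 that holds a pair of voltage-gated potassium channels, were all lower. Ces5a, a carboxylesterase, was lower in Smad2KO, from 248 to 46.2, but had a ratio of 0.83 in Smad3KO, from 59.5 to 106.

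Early activation genes were mixed, with 13 of 20 bright members below 0 and a median log2 ratio of -0.24. At 2-fold, 2 were lower and 1 higher. Of all 9057 genes read, 4965 were below 0 and the median was -0.03, with 1.76% lower and 2.94% higher at 2-fold. Fos went from 395 to 183 (log2 ratio -1.11), Nab2, a corepressor of Egr factors, from 1308 to 656, and Egr1 from 4449 to 2399 (-0.89), while Egr2 and Nr4a1 had ratios of 0.06 and -0.04. Jund went from 4672 to 2249 (-1.05) and had a ratio of 0.14 in Smad3KO. Irf8, a factor of the interferon regulatory family, was higher, from 627 to 4698 (2.91), with 2.87 in WT and 2.15 in Smad3KO. Among 10 MAP kinase phosphatases, Dusp4 was higher, from 481 to 1679 (1.80), and Dusp6, which acts on ERK, lower, from 2363 to 1100 (-1.10). Both passed limma's mean test in that direction, with adjusted p of 3.66e-07 and 2.15e-06. Of 17 costimulatory and inhibitory receptors, Tnfsf11, the ligand RANKL, and Tnfsf8 were 2-fold or more lower, at -1.03 and -1.01, and the median was 0.04 (-0.21 to 0.06 over the alternatives).

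Genes of naive and resting cells were higher in part. In limma's mean test 8 of the 17 on the list rose and 2 fell (7.16% and 5.61% over all genes tested). Those that fell were Itm2a, a membrane protein of T cells, from 7917 to 5483 in Smad2KO (adjusted p = 0.000191), and Satb1, a chromatin organizer, from 2620 to 1971 (0.0100). Klf2, a factor that controls exit from lymphoid tissue, went from 198 to 648 (log2 ratio 1.71), and its target S1pr1, the receptor for that exit, from 95.4 to 199.5 (1.06). Il7r, the IL-7 receptor chain, went from 137 to 293 (1.09), and Foxo1, which drives Klf2 and Il7r, from 572 to 1131 (0.98). The survival gene Bcl2 went from 543 to 1282 (1.24), and its antagonist Bcl2l11 from 999 to 494 (-1.02). Of 17 bright members of the naive list 5 were 2-fold or more higher and none lower, against 2.94% and 1.76% of all genes read. Lef1 and Foxp1 were near level, at 0.06 and 0.02. The list of 10 integrins had no member at 2-fold, with Itgb2 from 2545 to 4867 (0.94) and Itga3 from 180 to 93.9 (-0.94) at its ends. Among cytoskeletal, S100 and annexin genes, 7 of 15 were 2-fold or more higher, including Vim, vimentin, from 499 to 2504 (2.33), Lgals3, a galectin, from under the floor to 164, and Lgals1 from 835 to 1734 (1.05). In WT Lgals1 went from 1182 to 5445, and in Smad3KO from 957 to 2078, so it was the WT array with TGF-b that stood highest.

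Growth and division genes had small ratios that were mostly below 0. All 24 bright mitosis genes had a log2 ratio below 0 in Smad2KO, with a median of -0.39 and none at 2-fold, although 1 gene of the list was above 0 under quantile normalization, median scaling, the mean of probe sets, their median, the floor at the 25th percentile and no filter. Aurkb, a kinase of chromosome segregation, went from 736 to 403 (-0.87), Aurka from 346 to 215 (-0.69), Birc5, survivin, from 1314 to 812 (-0.69), and Bub1, a checkpoint kinase, from 832 to 548 (-0.60). The list's medians were -0.30 in WT and -0.03 in Smad3KO. In limma's mean test 6 of 25 fell, among them Aurkb (adjusted p = 0.0125) and Birc5 (0.0395). Of all genes tested there, 5.61% fell. Of 32 bright G1/S and replication genes 26 were below 0, with a median of -0.22. The helicase subunits Mcm5, Mcm6 and Mcm7 were level, between 0.09 and 0.13. Of 24 ribosome biogenesis genes 21 were below 0, with a median of -0.15. Across all 9057 genes read, 4965 were below 0, with a median of -0.03.

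Metabolic lists held few large ratios. Among 23 glycolysis and hypoxia genes, Egln3, a prolyl hydroxylase that marks the hypoxia factor for destruction, went from 97.8 to 582 (log2 ratio 2.57), and Vegfa from 92.3 to 46.0 (-1.01). The glycolytic enzymes Aldoa, Pgk1 and Ldha moved by 0.01, -0.02 and 0.13. Scd2, a desaturase of fatty acids, went from 831 to 1699 (1.03) and was the single member at 2-fold of 23 cholesterol and fatty acid synthesis genes. The 24 respiratory chain genes lay between -0.11 and 0.23, none at 2-fold, with a median of 0.07. Among 13 stress and unfolded protein genes none was at 2-fold, and Xbp1, a factor of the secretory pathway, had the highest ratio, 0.96.

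Interferon-inducible genes moved both ways in Smad2KO. Of 17 bright genes of that list 6 were 2-fold or more lower and 3 higher, against 1.76% and 2.94% of all genes read. The list's median log2 ratio was -0.13, against -0.92 in WT and -0.35 in Smad3KO. Over the alternatives the list's median ran from 0 without a filter, where 32 genes entered, to -0.44 both with a floor at 2 times the median and with scaling and floor set on 8 arrays. Ifitm2, which restricts virus entry, read 2539 without and 687 with TGF-b in Smad2KO (-1.89), 2125 and 359 in WT and 1566 and 721 in Smad3KO. Ifitm3 went from 407 to 113 (-1.85) and Ifitm1 from 119 to under the floor, and with B4galnt4 these form a run of 4 neighbouring genes read on chromosome 7 that were all 2-fold or more lower. Probes of the Ifitm genes may share signal. Ifih1, a sensor of viral RNA, went from 587 to 192 (-1.61). Higher were Ifi35, from 1378 to 2888 (1.07), Ifit3, from 46.5 to 108 (1.21), and Ddx58, from 43.1 to 88.2 (1.03).

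The interferon-inducible GTPases, picked out after their values had been seen, had ratios on both sides of 0. Among the immunity-related GTPases, Igtp read 1085 and 2559 in Smad2KO (log2 ratio 1.24), 1447 and 2139 in WT (0.56) and 1778 and 2596 in Smad3KO (0.55). Iigp1 read 131 and 335 in Smad2KO (1.36), 106 and 104 in WT and 243 and 272 in Smad3KO, so its highest array was Smad2KO with TGF-b. Its neighbours among genes read, Gm4951 and Smim3, were also 2-fold or more higher. Ifi47 went from 2290 to 5082 (1.15) in Smad2KO and from 2085 to 5498 in WT. Irgm2 and Irgm1 had ratios of 0.87 and 0.25. The guanylate-binding proteins Gbp2, Gbp3, Gbp6, Gbp7 and Gbp8 had ratios of -0.44, -0.02, -0.52, -0.52 and -0.74, smaller in size than those of WT, which were -1.18, -0.92, -1.05, -1.38 and, as a bound, -2.08. In limma's test of the difference between the Smad2KO response and the mean of the WT and Smad3KO responses, neither Iigp1 (adjusted p = 0.550) nor Igtp (0.620) passed.

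The promoters of Igtp, higher in Smad2KO, and Ifitm2, lower in it, are shown because each held both a short Smad element and the core of the interferon response element, GAAA repeated after a gap of 2 bases, while the genes moved in opposite directions. They are the 250 bases before the start in RefSeq, GRCm38.p6, at chr11:58199306-58199555 on the plus strand for Igtp and chr7:140955962-140956211 on the minus strand for Ifitm2. Capitals mark CAGACA and the GAAA repeat with its gap.
Igtp: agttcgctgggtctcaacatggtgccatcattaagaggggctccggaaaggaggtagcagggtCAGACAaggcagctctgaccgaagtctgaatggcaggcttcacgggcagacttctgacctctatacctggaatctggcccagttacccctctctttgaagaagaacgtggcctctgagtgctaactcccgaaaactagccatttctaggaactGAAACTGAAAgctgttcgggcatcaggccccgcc
Ifitm2: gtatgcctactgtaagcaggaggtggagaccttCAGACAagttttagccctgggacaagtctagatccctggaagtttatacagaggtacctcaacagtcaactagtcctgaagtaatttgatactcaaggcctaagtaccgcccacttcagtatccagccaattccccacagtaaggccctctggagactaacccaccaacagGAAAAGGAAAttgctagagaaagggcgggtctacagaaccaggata
The GAAA repeat, on either strand (TTTC on the other), was in 3.83% of promoters of higher genes, 5.63% of lower genes, 2.55% of all genes read and 2.98% of all RefSeq promoters.

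**Figure D4:**
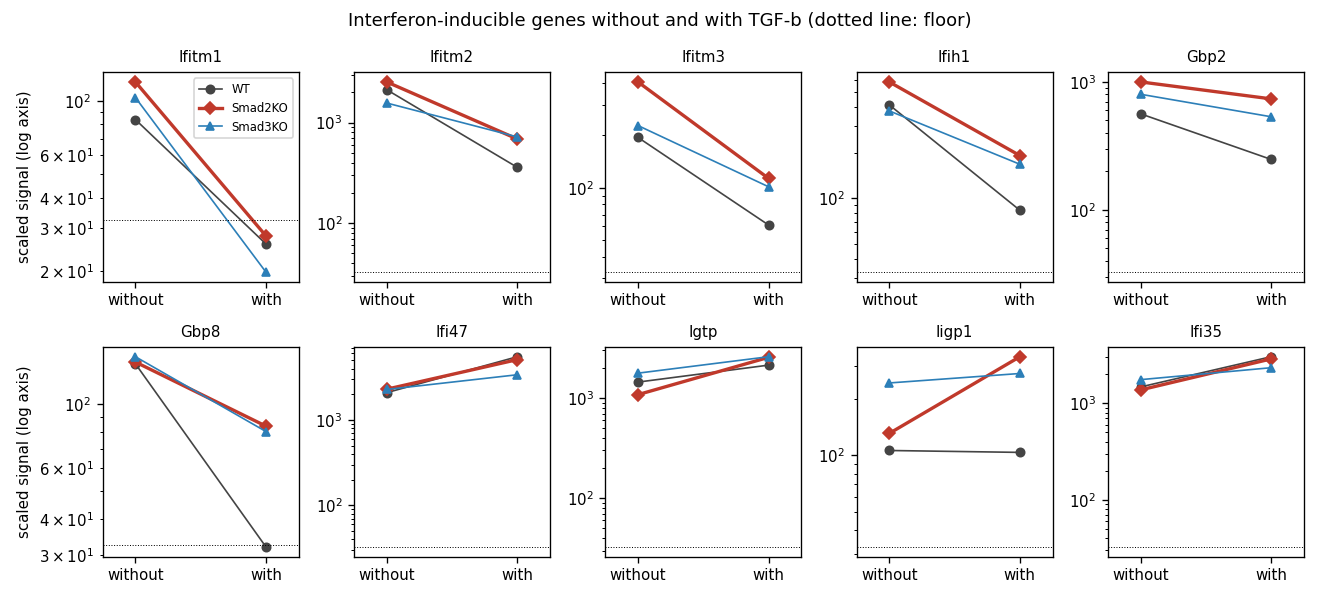
Scaled signal (vertical log axes, each with its own range) without and with TGF-b of 10 interferon-inducible genes in WT (circles), Smad2KO (diamonds) and Smad3KO (triangles), 1 array a point, with the floor of 32.5 dotted. Ifitm1, Ifitm2, Ifitm3, Ifih1, Gbp2 and Gbp8 slope down in every genotype, Ifi47, Igtp and Ifi35 slope up, and Iigp1 runs from 131 to 335 in Smad2KO but from 106 to 104 in WT.

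Set against the other genotypes, the Smad2KO response was intermediate in number. WT had 417 genes higher (4.53% of 9208) and 266 lower (2.89%), and Smad3KO had 170 higher (1.90% of 8937) and 75 lower (0.839%). The robust SD of the log2 ratio among genes bright on both arrays was 0.329 in WT, 0.261 in Smad2KO and 0.197 in Smad3KO, so the counts moved with the overall spread of each pair, and the part of that spread in the counts was not tested. Of the 266 genes higher in Smad2KO, 214 (80.5%) were 2-fold higher in WT too, which is 51.3% of WT's 417. The overlap with Smad3KO was 100 genes, 37.6% of the Smad2KO genes and 58.8% of Smad3KO's 170. Of the 159 lower genes, 85 (53.5%) were lower in WT and 46 (28.9%) in Smad3KO. For 45 of the higher genes neither other genotype was 2-fold or more higher, and for 69 of the lower genes neither was 2-fold or more lower. In 5 of those 69, WT or Smad3KO was 2-fold or more higher.

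Genes that responded in both other genotypes mostly did so without Smad2. There were 114 genes 2-fold or more higher in both WT and Smad3KO, and 93 of them (81.6%) were so in Smad2KO, with a median log2 ratio of 1.54 there, beside 1.93 for WT and 1.49 for Smad3KO. Of 49 genes lower in both, 41 (83.7%) were lower at 2-fold in Smad2KO. To compare sizes without choosing the genes by WT or Smad2KO, those picked in Smad3KO were read in the others. Over its 170 higher genes the median was 1.49 in WT and 1.16 in Smad2KO, and the Smad2KO ratio was the smaller of these for 122 of 170. Over its 75 lower genes the medians were -1.36 and -1.11, smaller in size in Smad2KO for 47. A single array a side gives no test of that difference.

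**Figure D5:**
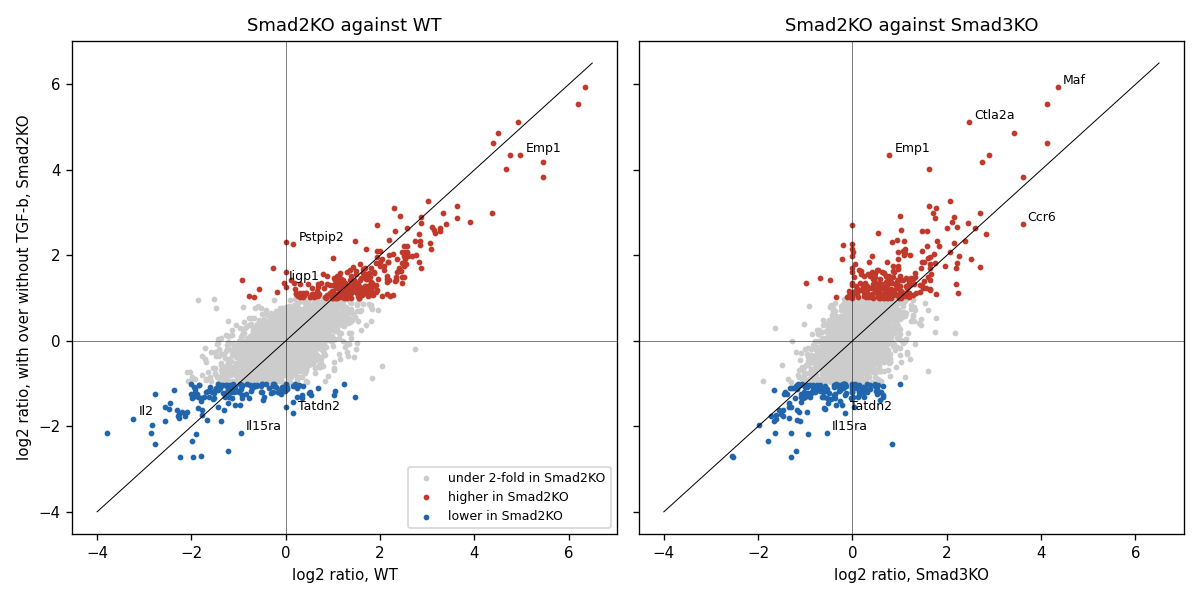
Log2 ratio with over without TGF-b in Smad2KO (vertical axis) against WT (left) and Smad3KO (right), 1 point a gene of the 9057 read, with the line of equal ratios. Red and blue are genes 2-fold or more higher and lower in Smad2KO. Points follow the line more closely against WT, Emp1 lies far above it against Smad3KO, and Tatdn2 lies near the vertical zero line of both panels with a ratio of -1.69 in Smad2KO.

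The 21 higher genes shared by WT and Smad3KO but under 2-fold in Smad2KO included several just short of it, such as Anxa4 at 0.97 and Dusp5 at 0.96. The lowest Smad2KO ratios among them were those of 1600014C10Rik, Lmna, Abi3 (0.38), Ier3 (0.40) and Xcl1 (0.46). 1600014C10Rik, a gene without a settled name, read 357 and 345 in Smad2KO, 268 and 764 in WT and 207 and 436 in Smad3KO. Lmna, which encodes lamin A, read 8.54 and 27.8 in Smad2KO, under the floor on both arrays, and 45.7 and 129.9 in WT. Xcl1, a chemokine that attracts dendritic cells, read 348 and 478 in Smad2KO, 127 and 442 in WT and 292 and 718 in Smad3KO. Its signal without TGF-b was thus highest in Smad2KO. Bcl3, a cofactor of NF-kB, read 124 and 183 in Smad2KO and 90.3 and 250 in WT. The 8 lower genes short of 2-fold in Smad2KO included the cytokine Il3, at -0.96, and Pgap1, at -0.94 against -2.03 in WT and -1.90 in Smad3KO.

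Conversely, 20 of the 266 genes 2-fold or more higher in Smad2KO were under 1.5-fold, or the other way, in WT and Smad3KO. On that rule there were 44 of the 159 lower genes, out of 9057 genes read. No such count was made for WT or Smad3KO, so these numbers do not show a trait particular to Smad2KO. Pstpip2, an adaptor of the cytoskeleton, led the higher genes. It read 82.6 and 398 in Smad2KO, 15.2 and 36.4 in WT and 9.45 and 28.5 in Smad3KO. Its log2 ratio in Smad2KO was 2.27, with 2.86 and 3.59 on its other bright probe sets. Both Smad2KO arrays thus stood above the other 4, also without TGF-b, and the source of that difference was not tested. Actc1, an actin of heart muscle, read 34.7 and 114 in Smad2KO and 38.9 and 22.7 in WT. Uba7, the enzyme that activates ISG15, read 38.6 and 99.3, against 92.3 and 104 in WT, so its Smad2KO array without TGF-b was the low value. Among the lower genes, Usp2, a deubiquitinase, read 108 and 45.3 in Smad2KO and 53.6 and 78.1 in WT. Cit, a kinase of cell division, read 182 and 79.6 in Smad2KO and 95.7 and 137 in WT, but its other bright probe set had a ratio of -0.11. Cplx1, a regulator of vesicle fusion, read 128 and 44.0 in Smad2KO and 61.2 and 61.4 in WT. For Usp2 and Cplx1 the Smad2KO array without TGF-b was the highest of the 6, and for Cit only the Smad3KO array with TGF-b, at 197, was higher.

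A formal test of the difference was possible only by treating WT and Smad3KO as the spread. Limma's contrast of the Smad2KO response with their mean called 0 of 9451 genes higher (0%) and 1 lower (0.0106%) at an adjusted p under 0.05, with 76 and 140 at an unadjusted p under 0.05. That spread holds real differences between WT and Smad3KO and rests on 1 residual degree of freedom. The called gene, Tatdn2, encodes a putative deoxyribonuclease. It read 505 without and 157 with TGF-b in Smad2KO, 384 and 424 in WT and 632 and 566 in Smad3KO, so the Smad2KO array with TGF-b was the low value of the 6. The difference was -1.68 on the log2 scale (SE 0.274, adjusted p = 0.000857). It was read from 1 bright probe set, the only probe set of the gene. The difference was -1.68 or -1.72 under every alternative fitted, while its adjusted p ran from 4.34e-05 under quantile normalization to 1.00 with the mean of probe sets, with their median and without the trend and robust settings, and was 0.677 without a filter.

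The next genes in that ranking did not pass, although some did under an alternative. Rab5c, a GTPase of early endosomes, went from 775 to 363 in Smad2KO, where WT had 785 and 805 and Smad3KO 773 and 809. Its difference was -1.15 on the log2 scale, with an adjusted p of 0.0568 in limma (0.0155 under quantile normalization and 0.0275 with the floor at the 25th percentile). The 5 other arrays of Rab5c lay within 773 and 809. 1600014C10Rik, described above, had the same adjusted p, and 0.0226 and 0.0275 under those alternatives. Setd5, a SET domain protein, had 0.133, and 0.0362 under quantile normalization, with its other bright probe sets at -0.71 and -0.04. On the higher side Iigp1 and Igtp led, followed by Nrp1, a coreceptor found on regulatory T cells, which read 276 and 419 in Smad2KO, 423 and 345 in WT and 252 and 185 in Smad3KO (adjusted p = 0.867). Il15ra had an unadjusted p of 0.00459 and did not pass after adjustment.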

How the data were processed

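The deposited table holds linear intensities per probe set, from GCOS 1.4 per the submitters' processing notes. The sources used here give neither its algorithm nor its scaling. The 6 WT, Smad2KO and Smad3KO arrays were scaled to equal 2% trimmed means, with factors of 0.853 to 1.26 and deposited medians of 27.3 to 39.2. Signals under the floor of 32.5 were set to it before log2. The Smad2del/delSmad3+/- arrays, which had rank correlations of 0.660 to 0.693 with the others, were left out. Where a gene had several probe sets, the brightest over the 6 arrays stood for it. Of 45101 probe sets, 34945 had 1 symbol in the platform annotation, 932 had several and were left out, 9160 were unnamed and 64 were controls. RefSeq (GRCm38.p6) matched 34741 probe sets by gene and changed 0 symbols.

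Mean responses and differences between responses were fitted in limma 3.58.1 (R 4.3.3), blocking on genotype, with moderated variances (trend, robust) and p-values adjusted by Benjamini-Hochberg over all genes, threshold 0.05. The fit was tested on simulated data. Array number limits the precision.

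Named genes were the 15 highest and lowest measured ratios, the 10 highest and lowest bounds, up to 10 per direction by the smallest p of the difference, up to 10 per direction at 2-fold in Smad2KO only, and members of 26 gene lists. Genes named as neighbours, as interferon-inducible GTPases or as short of 2-fold in Smad2KO were picked after their values were seen. The comparison, lists and tests were chosen with earlier results of these data known. Alternatives changed scaling, floor, filter, probe set rule, limma settings and pairs used.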

Additional observations from a re-analysis of the deposited data

Results flagged for a closer look

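Tatdn2 was the gene whose Smad2KO response differed from the mean of the WT and Smad3KO responses in limma's test, by -1.68 on the log2 scale (adjusted p = 0.000857). The Smad2KO pair showed the drop and neither other pair did. Tatdn2 did not pass with the mean or median of probe sets, without a filter, or without the trend and robust settings. The result rests on 1 probe set and 1 residual degree of freedom.

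In 5 further genes the Smad2KO pair was 2-fold or more lower while WT or Smad3KO was 2-fold or more higher. Their log2 ratios in Smad2KO were -1.01 for Bahcc1, -1.001 for Basp1, -1.30 for Cphx3, -1.27 for Dhrsx and -1.18 for Pklr. Limma's test of that difference gave unadjusted p of 0.189 for Bahcc1, 0.0125 for Basp1, 0.00527 for Cphx3, 0.0401 for Dhrsx and 0.0662 for Pklr, and none passed after adjustment. Signals were low, as for Cphx3, at 101 and 41.0 in Smad2KO, 29.8 and 89.9 in WT and 47.0 and 50.9 in Smad3KO. No group had 4 samples, so no array was tested as standing apart.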

How the results depend on the processing

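With a single array a side, the counts in Smad2KO depend most on how dim signals are treated. Against 266 higher and 159 lower genes, a floor at the 25th percentile gave 1064 and 1379, so that 43.6% of calls were higher in place of 62.6%, a floor at 2 times the median gave 97 lower, and asking both arrays to reach 2 times the floor gave 157 and 86. Under the other settings the counts were 190 to 283 higher and 109 to 187 lower. Of 127 named or listed genes at 2-fold, 0 changed direction under the 10 settings, and 1054 of 1270 values moved by less than the robust SD of 0.261. The difference test called 0 genes higher under every setting. It called 4 lower with quantile normalization and 3 with the floor at the 25th percentile, Tatdn2 among them with Rab5c and 1600014C10Rik, and Setd5 under the former only, and 0 for averaged or median probe sets, without a filter, and without the trend and robust settings. The mean response, at 677 and 530, gave 343 and 224 for averaged probe sets, 376 and 249 for their median, 305 and 154 without a filter, 267 and 126 without trend and robust settings, and 369 and 230 without the genotype block. Leaving out 1 pair gave 250 to 917 higher and 152 to 887 lower, with 250 and 152 without WT, 472 and 265 without Smad2KO, and 917 and 887 without Smad3KO. The cause of these shifts was not tested. The difference test was not run without a pair, since no residual degree of freedom is left. The genotype block pairs the arrays without and with TGF-b of each genotype. The labels give no replicate numbers.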

Other observations

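Probe sets that the platform annotation does not name were higher with TGF-b more often than named ones in Smad2KO. Of 2008 bright unnamed probe sets, 149 (7.42%) were 2-fold or more higher and 22 (1.10%) lower, with a median log2 ratio of 0.22. Of 16490 bright probe sets with 1 symbol, 531 (3.22%) were higher and 266 (1.61%) lower, with a median of -0.01. The shares higher, unnamed against named, were 6.48% and 4.49% in WT and 3.45% and 1.95% in Smad3KO, and the medians of unnamed probe sets were 0.06 and 0.14. The difference was not tested. These probe sets entered no comparison above.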
